A study of Mus musculus with 16 samples.

Results

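Left ventricles of 4 multiparous mice whose libraries carry codes ending in P alone (10P, 11P, 7P and 8P) were compared across all genes with those of 8 virgin mice, so that 12 of the 16 libraries of the study entered the comparison. The P libraries were taken by the code in their library names, and the other 4 multiparous libraries, whose codes end in MP, were left out of this fit. All mice were 24 months old, of the strain C57Bl/6J and untreated. The multiparous mice had a history of more than 3 pregnancies and the virgin mice had none. Hearts were rinsed through with buffer, the left ventricle was divided from base to apex, RNA came from its middle piece, and ribosomal RNA was depleted before sequencing. The labels do not say what P and MP stand for. All virgin libraries carry codes beginning with AA, so parity and whatever these codes mark cannot be told apart. The study asked how parity by itself alters the function and the transcriptome of the heart.

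Pregnancy places a volume load on the heart, which enlarges and returns towards its former size after birth. The ventricular wall is mostly cardiomyocytes by mass, with fibroblasts, endothelial cells, pericytes and macrophages between them. Hepatocytes, the main cells of the liver, make albumin, apolipoproteins, clotting factors and most other plasma proteins, along with cytochrome P450 enzymes, whereas the proximal tubule of the kidney is marked by transporters that recover solutes from the filtrate. Transcripts of both organs are rare in heart muscle, and levels of both are given here because they separate these libraries.

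Counts assigned to genes ranged from 43813966 to 58890976 in the P libraries and from 35974626 to 50910220 in 7 virgin libraries, with 228325238 in virgin 8. The summed level of 18 cardiomyocyte markers, in CPM (assigned counts relative to library size) scaled by the normalization factors, ran from 105317 to 118390 in the P libraries and from 92203 to 127932 in the virgin libraries, so the P range lay inside the virgin range. The atrial list summed to 58.5 to 153 CPM in P and to 55.7 to 141 CPM in virgin libraries, with 4 of its 9 tested genes higher in P, 5 lower and 0 called. Nppa made up much of this sum, with 32.0 to 115 CPM in P and 23.7 to 103 CPM in virgin libraries. Its defining light chain gene Myl7 averaged 0.125 CPM in P and 0.301 CPM in virgin libraries (log2 difference -1.36). Mybphl, the member of smallest p, differed by -1.45 (edgeR adjusted p = 0.101), and the atrial ligand gene Bmp10 had a log2 difference of 1.15.

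The liver list of 50 genes stood apart in 3 P libraries. Its summed level was 164 CPM in 10P, 584 CPM in 11P and 535 CPM in 8P, against 52.8 CPM in 7P. The virgin libraries lay between 51.2 and 281 CPM, and the highest of them was virgin 8, which held 219 CPM of Ttr, a gene of liver and choroid plexus, by itself. Without virgin 8 the virgin libraries did not reach 10P, and 7P lay among them. The kidney list of 31 genes went the other way, from 39.4 to 48.2 CPM in the P libraries and from 56.8 to 192 CPM in the virgin libraries, so that all 8 virgin libraries lay above the highest P library. The part of liver or kidney RNA in any other result was not tested beyond the fits given below.

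**Figure D1:**
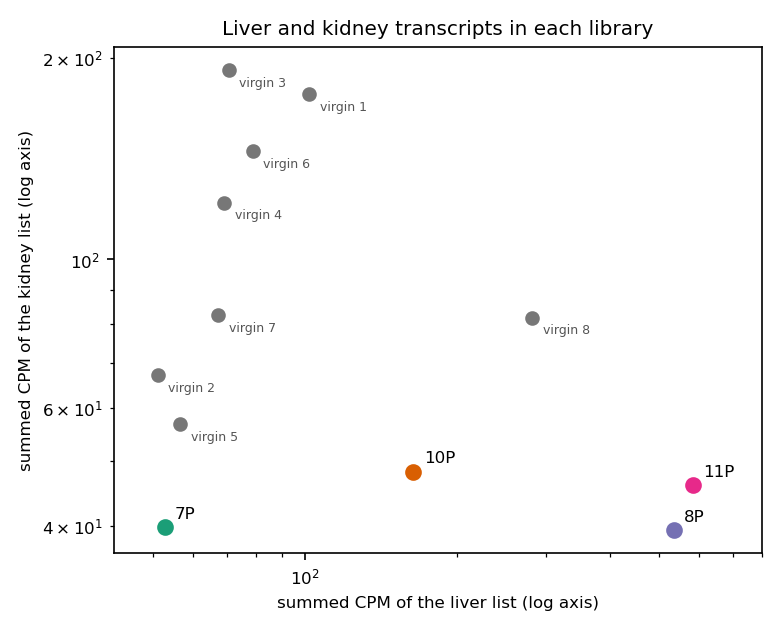
Summed CPM of the liver list (horizontal, log axis) and of the kidney list (vertical, log axis) in each of the 4 P and 8 virgin libraries, 1 point a library. The libraries 10P, 11P and 8P sit to the right at 164, 584 and 535 CPM of liver transcripts, 7P sits at 52.8 CPM, and all 8 virgin libraries sit higher than the P libraries for kidney transcripts.

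Liver genes rose and kidney genes fell between virgin and P hearts, and a group of genes with changes of modest size stood beside them. Of 18612 genes tested, 86 passed at an adjusted p under 0.05 (edgeR quasi-likelihood F-test, Benjamini-Hochberg over all genes), which is 0.462% of those tested. Of these, 60 were higher in P (0.322%) and 26 lower (0.14%). The liver list held 28 of the 60 higher genes and the kidney list 7 of the 26 lower genes, so that 32 and 19 lay outside these lists. The genes split by size, with 48 of the 60 higher genes changed by more than 2 on the log2 scale and 18 of the 26 lower genes by more than 2 in the other direction. Over all genes tested the median log2 change was -0.01, with 47.1% higher and 52.9% lower. In bulk tissue, fewer cells of a type and less RNA per cell cannot be told apart.

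The number of genes called turned on single libraries. It was 30 without 10P, 2 without 11P, 166 without 7P and 2 without 8P. It was 75 without virgin 1, 1 without virgin 2, 1 without virgin 3, 3 without virgin 4, 24 without virgin 5, 4 without virgin 6, 12 without virgin 7 and 6 without virgin 8. Cyp2f2 passed in all 12 of these fits. No other named gene, predicted genes aside, passed in more than 4 of them. Most of the 86 genes shared an adjusted p of 0.0394 in the full comparison. At an unadjusted p under 0.05 there were 1636 genes. The count was 0 with the summed kidney list as a covariate (1397 at an unadjusted p under 0.05). In that sum all 8 virgin libraries lay above the highest P library. The fit therefore cannot cleanly tell kidney level from group, and nothing is concluded from the loss of calls.

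**Figure D2:**
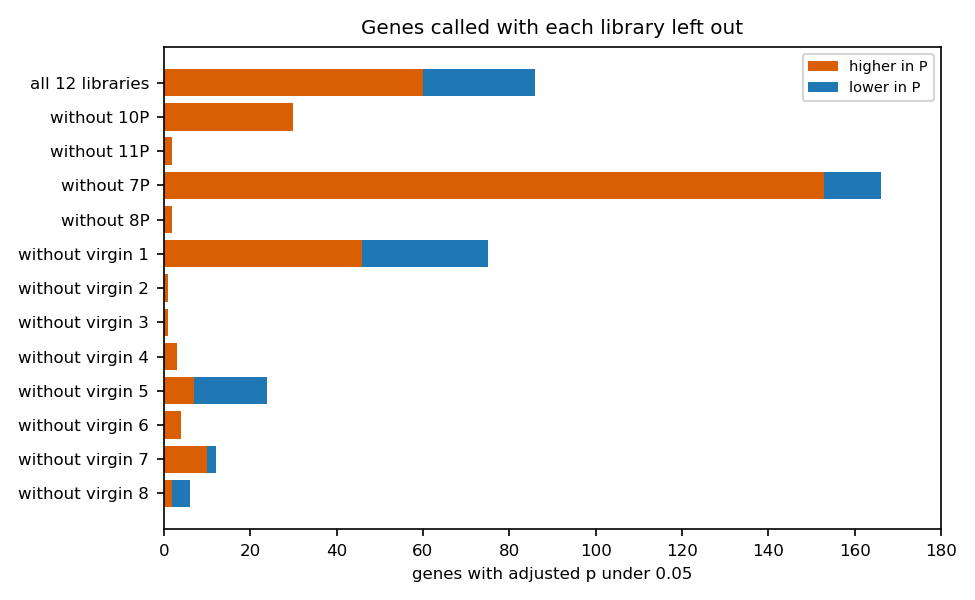
Number of genes with an adjusted p under 0.05 in the edgeR comparison of P and virgin libraries (horizontal) with all 12 libraries and with each library left out in turn (rows), split into genes higher and lower in P. The full comparison called 86 genes, leaving out 7P raised this to 166, and leaving out virgin 2 or virgin 3 left 1.

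The genes that rose most were hepatocyte genes, and they rose in the same 3 libraries. Alb, which encodes serum albumin (chr5:90460897-90476602, plus strand, GRCm38), was at 49.6 CPM in 10P, 235 CPM in 11P and 188 CPM in 8P but at 1.46 CPM in 7P. Its virgin levels had a lowest value of 0.871 CPM, a median of 3.22 CPM and a highest value of 14.5 CPM. Thus 3 P libraries lay above every virgin library and 7P lay inside the virgin range. The mean was 118 ± 111 CPM (SD, n = 4) against 4.51 ± 4.47 CPM (SD, n = 8), a log2 change of 4.65 with a standard error of 0.80 (edgeR adjusted p = 0.0394). With 1 library left out at a time this change stayed between 4.09 and 5.12 and its adjusted p reached 0.227.

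Cyp2f2, a cytochrome P450 gene of liver and of airway club cells (chr7:27119909-27133660), had the smallest p. It was at 0.857 CPM in 10P, 1.85 CPM in 11P, 0.238 CPM in 7P and 1.66 CPM in 8P. In virgin libraries the lowest level was 0 CPM, the median 0.068 CPM and the highest 0.145 CPM. All 4 P libraries therefore lay above all 8 virgin libraries, with 7P nearest to them. Its log2 change was 4.28 with a standard error of 0.54 (edgeR adjusted p = 0.0037), and the adjusted p was at most 0.0377 with any single library left out. With 7P as the only P library its log2 change was 2.08, in a fit that rests on a single P library and cannot decide a call. Cyp2f2 did not pass with limma voom (adjusted p = 0.0779). Nor did it pass in edgeR with the kidney covariate (adjusted p = 0.49), which follows group too closely to decide.

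The other leading liver genes had 7P among the virgin libraries. Cyp2c29, another hepatic P450 gene, was at 0.754, 4.14 and 4.97 CPM in 10P, 11P and 8P and at 0.017 CPM in 7P, and virgin libraries reached 0.228 CPM. Serpina3k, a liver protease inhibitor, was at 1.64, 9.67 and 5.199 CPM in the same 3 libraries and at 0.136 CPM in 7P, against a virgin median of 0.0742 CPM and a highest virgin level of 0.746 CPM. Ces1c, a carboxylesterase secreted into plasma, was at 2.96, 11.0 and 11.1 CPM, at 0.102 CPM in 7P, and at most at 0.767 CPM in virgin libraries. In each of these genes 7P was the only P library inside the virgin range. Their log2 changes were 5.33, 4.83 and 4.77 with standard errors of 0.87, 0.88 and 0.81, and the edgeR adjusted p was 0.0394 for all 3 genes. The plasma protein genes Kng1 (log2 change 4.61) and A1bg (4.59), the drug-metabolizing P450 genes Cyp3a11 (4.53) and Cyp2c37 (4.88), the major urinary protein gene Mup3 (4.73), the apolipoprotein gene Apoc3 (4.51), the inter-alpha-trypsin inhibitor gene Itih1 (4.38) and the paraoxonase gene Pon1 (4.28) rose with them, each with an edgeR adjusted p of 0.0394.

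Of the 45 tested genes of the liver list, 28 rose, 42 had a higher mean in P and the median log2 change was 3.66, where 0.322% of all tested genes rose. The counts of separation that follow describe genes called on these same libraries, so they are partly fixed in advance. Their shares over all tested genes were not counted. Among the 60 genes that rose, 58 had 10P, 11P and 8P above all 8 virgin libraries, and 46 had 7P inside the virgin range. For the 48 genes with the larger changes these numbers were 48 and 43. In 38 of them each other P library held more than 5 times the level of 7P. Across those 38 genes the ratio of 11P to 10P had a median of 3.70 (range 1.95 to 6.33), and that of 8P to 10P a median of 3.91 (range 0.77 to 6.87), so that 10P generally held the least of the 3. The acute-phase list had 1 called member of 22 tested, Orm1, an acute-phase plasma protein gene, with a log2 change of 3.91 (edgeR adjusted p = 0.0414). Orm1 had no counts in 7P (0 CPM) and stood at 0.377 CPM in 10P, 1.67 CPM in 11P and 1.51 CPM in 8P. Serpina1a, Serpina1b, Serpina1c and Serpina1d, which rose as well, are near-identical copies among which reads may be divided in an uncertain way.

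Kidney genes fell. Kap, the androgen-regulated protein of the proximal tubule (chr6:133849851-133853762, minus strand), was at 0.0514 CPM in 10P, 0.183 CPM in 11P, 0.119 CPM in 7P and 0.0374 CPM in 8P. In virgin libraries its lowest level was 0.750 CPM, its median 9.60 CPM and its highest 17.7 CPM. No P library reached the lowest virgin library. The log2 change was -6.44 with a standard error of 1.05 (edgeR adjusted p = 0.0394), and it lay between -6.84 and -6.18 with any single library left out, where the adjusted p reached 0.227.

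Lrp2, the megalin receptor of the tubule brush border, stood at 0.565, 1.01, 0.153 and 1.61 CPM in 10P, 11P, 7P and 8P. Its lowest, median and highest virgin levels were 1.186, 20.7 and 46.1 CPM, so the ranges touched at 8P. Its log2 change was -4.72 with a standard error of 0.88 (edgeR adjusted p = 0.0394). Slc34a1, the phosphate transporter of the proximal tubule, was at 0.0685, 0.0914, 0.102 and 0 CPM in the same order, against 0.533 to 9.38 CPM in virgin libraries (median 3.25 CPM). The groups did not overlap, and the log2 change was -5.89 with a standard error of 1.21 (edgeR adjusted p = 0.049). Mep1a, a brush border protease, was at 0.0857, 0.0229, 0 and 0 CPM against 0.0484 to 6.10 CPM, with 10P inside the virgin range.

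For most of the 18 genes of this size the P libraries held fewer than 10 counts in all. The enzyme gene Miox had 4 counts, the fucosyltransferase gene Fut9 had 8, Tmem229a had 5, the amino acid transporter gene Slc7a12 had 4, and the folate receptor gene Folr1 had 4. Akr1c21, a hydroxysteroid dehydrogenase gene of the kidney, had 3 counts in P and 223 in virgin libraries, so that its level was 30.0 times higher in virgin hearts with a counting interval from 10.2 to 147 (exact, 95%). Slc5a10, a sugar transporter gene, had 2 counts against 269, a ratio of 54.4 with an interval from 14.9 to 451. Both intervals cover counting error only. Of the 25 tested genes of the kidney list, 7 fell, 24 had a lower mean in P and the median log2 change was -4.72, where 0.14% of all tested genes fell. Virgin 1, 3, 4 and 6 held the most kidney transcripts. With these 4 libraries left out, the log2 changes were -5.66 for Kap (edgeR adjusted p = 0.0864) and -3.54 for Lrp2 (adjusted p = 0.152), so both kept their sign and neither passed. Slc34a1 (-4.67, adjusted p = 0.0491) and Miox (-5.14, adjusted p = 0.0092) were among the 8 genes that passed without them.

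**Figure D3:**
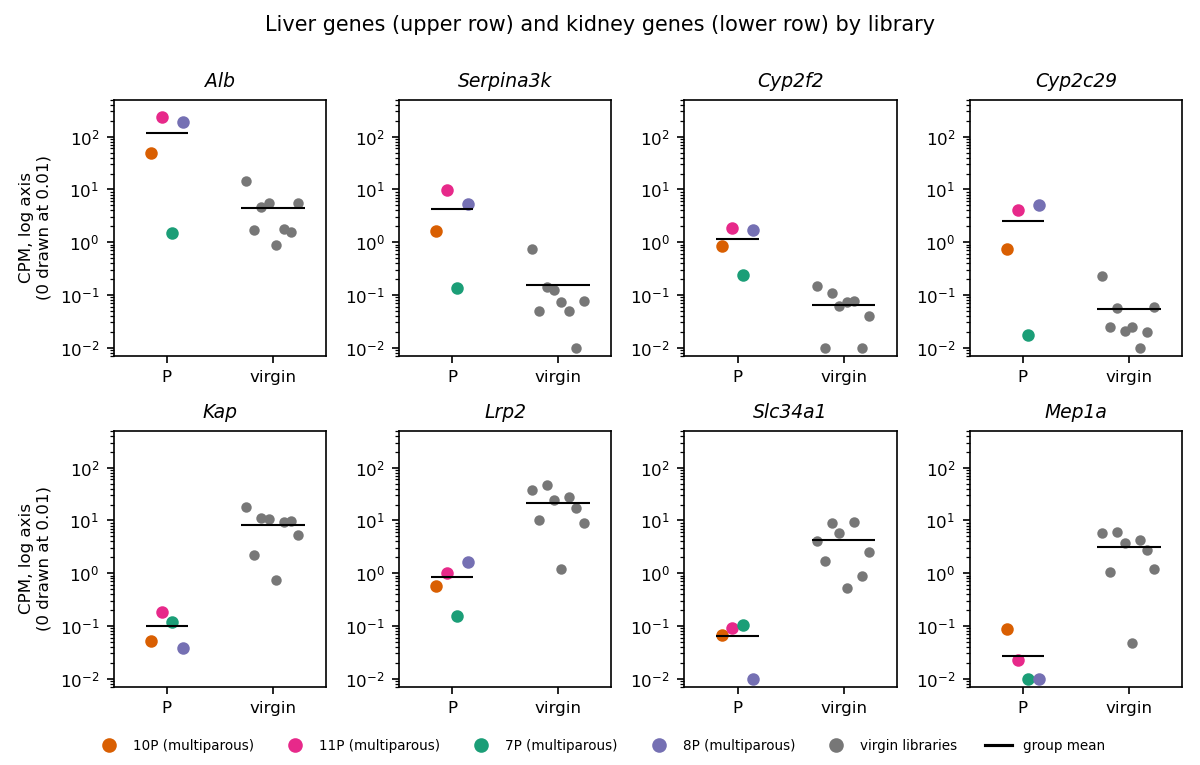
CPM (log axis, with 0 drawn at 0.01) of 4 genes that rose (upper row) and 4 kidney genes that fell (lower row) in the 4 P and 8 virgin libraries, 1 point a library, with group means as lines. In Alb, Serpina3k and Cyp2c29 the library 7P sits among the virgin libraries, and in Kap and Slc34a1 every P library sits under every virgin library.

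The promoters of these genes were read from RefSeq (GRCm38.p6), as windows of 300 bases with 250 before and 50 after the start in RefSeq. Gene positions in this text come from GENCODE, and its starts can differ. The windows of Irx3 and Slc34a1 lie inside the genes as GENCODE places them (chr8:91798525-91802067 and chr13:55398187-55415592). HNF1 factors are active in hepatocytes and in the proximal tubule and bind a palindrome of which GTTAAT is one arm. The letters GTTAAT, on either strand (ATTAAC on the other), occur in the windows of 7.2% of 27025 genes. They occur in 14 of the 37 windows found for genes that rose by more than 2 on the log2 scale (37.8%) and in 7 of the 15 found for genes that fell by more than 2 (46.7%). Of the 14 windows found for called genes with smaller changes, 0 hold them. Within 100 bases before the start the shares are 2.62% of all genes, 32.4%, 33.3% and 0%. A match is a description of the letters and not a binding site. The windows of Alb, of the fibrinogen chain gene Fgb and of Slc34a1 are shown for the match near the start, and those of Irx3 and Plekhh1, described further on, for its absence. Capitals mark GTTAAT or ATTAAC, and each sequence runs 5′ to 3′ on the strand of its gene, minus for Fgb and Irx3 and plus for the other 3.
Alb chr5:90460620-90460919: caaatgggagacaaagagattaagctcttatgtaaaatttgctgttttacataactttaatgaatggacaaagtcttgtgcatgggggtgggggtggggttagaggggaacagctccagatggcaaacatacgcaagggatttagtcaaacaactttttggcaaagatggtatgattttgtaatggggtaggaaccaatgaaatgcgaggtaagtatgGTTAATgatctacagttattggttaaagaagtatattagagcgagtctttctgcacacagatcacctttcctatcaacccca
Fgb chr3:83049814-83050113: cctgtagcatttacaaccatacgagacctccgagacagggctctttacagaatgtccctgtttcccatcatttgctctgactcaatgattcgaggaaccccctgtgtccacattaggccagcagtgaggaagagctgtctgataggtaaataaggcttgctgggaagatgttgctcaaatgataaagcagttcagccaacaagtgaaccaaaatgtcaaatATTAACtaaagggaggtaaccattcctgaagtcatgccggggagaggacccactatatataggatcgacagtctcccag
Slc34a1 chr13:55399398-55399697: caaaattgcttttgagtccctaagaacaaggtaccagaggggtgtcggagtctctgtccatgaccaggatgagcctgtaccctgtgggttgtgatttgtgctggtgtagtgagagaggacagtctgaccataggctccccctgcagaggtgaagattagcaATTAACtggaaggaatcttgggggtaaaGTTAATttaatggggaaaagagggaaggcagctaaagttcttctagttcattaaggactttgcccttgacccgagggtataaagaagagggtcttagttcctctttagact
Irx3 chr8:91801605-91801904: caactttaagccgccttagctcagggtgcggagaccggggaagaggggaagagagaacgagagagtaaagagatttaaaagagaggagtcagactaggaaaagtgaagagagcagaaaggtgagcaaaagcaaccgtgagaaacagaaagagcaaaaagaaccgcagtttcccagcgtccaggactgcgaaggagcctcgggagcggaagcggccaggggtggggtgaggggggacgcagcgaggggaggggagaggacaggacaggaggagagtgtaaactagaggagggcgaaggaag
Plekhh1 chr12:79028913-79029212: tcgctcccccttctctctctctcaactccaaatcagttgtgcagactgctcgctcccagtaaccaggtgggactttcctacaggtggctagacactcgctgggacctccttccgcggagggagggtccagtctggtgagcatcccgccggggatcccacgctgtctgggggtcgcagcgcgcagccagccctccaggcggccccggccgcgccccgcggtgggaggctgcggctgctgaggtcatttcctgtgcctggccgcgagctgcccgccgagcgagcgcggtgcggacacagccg
The match begins 32 bases before the RefSeq start in Alb, 29 before it in Fgb, and 89 and 61 before it in Slc34a1.

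Beside these stood calls of modest size. Of the 60 genes that rose, 12 changed by 2 or less on the log2 scale, and in 7 of these 12 all 4 P libraries lay above all 8 virgin libraries. Such complete separation upwards was found in 71 of all 18612 tested genes (0.381%), and downwards in 122 (0.655%).

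Plekhh1 encodes a protein with pleckstrin homology, MyTH4 and FERM domains (ENSMUSG00000060716.7, chr12:79029163-79081655, plus strand). It was at 3.91 CPM in 10P, 2.93 CPM in 11P, 3.40 CPM in 7P and 3.57 CPM in 8P. In virgin libraries the lowest level was 1.193 CPM, the median 1.59 CPM and the highest 2.61 CPM. Every P library lay above every virgin library, and 7P lay within the range of the other 3. The level was 2.13 times that of virgin hearts, with a log2 change of 1.09 and a standard error of 0.19 (edgeR adjusted p = 0.0394). With 7P as the only P library the log2 difference was 1.07 (adjusted p = 0.896) and without the 4 kidney-rich virgin libraries it was 1.07 (adjusted p = 0.199), so neither passed. With single libraries left out it lay between 0.95 and 1.21. The call itself was kept in 4 of the 12 fits with a library left out, those without 7P, virgin 1, virgin 5 and virgin 7, and the adjusted p reached 0.227 in the others. Exons of Plekhh1 share 992 bases with Pigh on the other strand. The libraries were made with a stranded kit per the labels, but the strand setting of the counting is not given in the sources used here, so the reads of the 2 genes cannot be told apart there. The same holds for Irx3 with Irx3os (124 bases), Ephb1 with Gm26846 (152 bases), Egf with Gm42697 (607 bases), Slc34a1 with Pfn3 (545 bases) and Cyp2f2 with Gm15883 (274 bases). This list is not complete, since 23 of the 86 called genes have exonic overlap with another gene. Overlaps of genes that were not called, Ankrd23 and Nppa among them, are not given here, and their levels may be limited in the same way.

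Irx3 and Irx5, Iroquois homeobox genes of the ventricular wall and conduction system, rose together. They lie 555558 bases apart on chromosome 8, Irx3 at chr8:91798525-91802067 on the minus strand and Irx5 at chr8:92357625-92376286 on the plus strand. Irx5, which is known to set the gradient of repolarization across the ventricular wall by repressing Kcnd2, was at 21.3 CPM in 10P, 15.8 CPM in 11P, 15.1 CPM in 7P and 17.5 CPM in 8P. Its virgin levels had a lowest value of 6.28 CPM, a median of 8.48 CPM and a highest value of 15.2 CPM. Virgin 7 alone reached the P libraries, just above 7P, and the log2 change was 0.94 with a standard error of 0.18 (edgeR adjusted p = 0.0394). Irx3, which is known to support fast conduction in the His-Purkinje network, was at 47.7, 42.8, 35.2 and 42.4 CPM in 10P, 11P, 7P and 8P. Its virgin levels ran from 23.5 to 35.3 CPM with a median of 27.1 CPM, so 7P fell just inside the virgin range. Its log2 change was 0.57 with a standard error of 0.10 (edgeR adjusted p = 0.0394). With 7P as the only P library the log2 differences were 0.74 for Irx5 and 0.32 for Irx3, and neither passed (adjusted p = 0.896 and 0.897). Both calls were lost without any 1 of 10P, 11P and 8P or of virgin 2, 3, 4, 5, 6 and 8, with an adjusted p of at most 0.227.

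Other members of the Iroquois family (Irx1, Irx2 and Irx4) and the known target Kcnd2 were measured too. Irx1 (6.54, 5.92, 9.04 and 5.31 CPM in 10P, 11P, 7P and 8P, virgin median 2.91 CPM) and Irx2 (7.47, 6.06, 12.97 and 5.199 CPM, virgin median 2.88 CPM) had log2 differences of 1.22 and 1.36 but did not pass (edgeR adjusted p = 0.402 and 0.46). In both genes virgin 5 stood with the P libraries, at 8.23 CPM for Irx1 and 10.6 CPM for Irx2. Irx4, the ventricular member, differed by -0.08 (95% interval -0.24 to 0.07). Kcnd2, a channel subunit of the transient outward current, was at 20.5, 25.4, 29.5 and 29.7 CPM against a virgin median of 34.6 CPM (range 24.9 to 38.9 CPM), and its log2 difference of -0.35 did not pass (edgeR adjusted p = 0.326). Kcnip2, which encodes the partner subunit, differed by -0.23 (adjusted p = 0.592). In the conduction list, 2 of 19 tested genes rose, these being Irx3 and Irx5, 13 had a higher mean in P and the median was 0.10. Of all tested genes, 0.322% rose and 47.1% had a higher mean.

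Among the other genes of modest change that rose were Sorcs2, Ephb1, Ripor2 and Thsd4. Sorcs2, a sorting receptor of the sortilin family, was at 16.3, 16.8, 17.2 and 18.3 CPM in 10P, 11P, 7P and 8P against 10.0 to 15.1 CPM in virgin libraries (median 11.9 CPM). Ephb1, an ephrin receptor tyrosine kinase gene, was at 6.44, 5.51, 5.92 and 6.08 CPM against 2.79 to 4.72 CPM (median 4.06 CPM). Neither gene overlapped between the groups, and the log2 changes were 0.52 for Sorcs2 and 0.64 for Ephb1 with standard errors of 0.09 and 0.12. Ripor2, an inhibitor of the small GTPase RhoA, was at 29.5, 27.8, 27.6 and 31.9 CPM against 17.6 to 25.4 CPM (median 21.6 CPM). Thsd4, which encodes a protein of the fibrillin microfibrils, was at 10.1, 10.2, 9.01 and 11.0 CPM against 6.40 to 8.71 CPM (median 7.49 CPM). These 2 genes did not overlap between the groups either, and both had a log2 change of 0.42 with a standard error of 0.08. The edgeR adjusted p was 0.0394 for all 4 genes. Sorcs2, Ephb1 and Ripor2 were chosen after their values were seen. Thsd4 was the 1 called member of the 25 tested matricellular genes, of which 15 had a lower mean in P.

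Ramp1, the accessory subunit of the receptor for calcitonin gene-related peptide, was at 3.26, 2.40, 3.20 and 3.22 CPM, and 11P fell inside the virgin range of 0.944 to 2.63 CPM (median 1.63 CPM). Its log2 change was 0.87 with a standard error of 0.18 (edgeR adjusted p = 0.0499), and it was named after its values were seen. Ramp1 passed in 0 of the 12 fits with a library left out (edgeR adjusted p up to 0.247). Ighd, the constant region gene of immunoglobulin D, which naive B cells carry on their surface, was at 2.40 CPM in 10P, 2.56 CPM in 11P and 2.32 CPM in 8P but at 0.902 CPM in 7P. Virgin libraries held 0.339 to 1.11 CPM (median 0.608 CPM), so Ighd was high in the same 3 libraries as the liver genes. Its log2 change was 1.64 with a standard error of 0.28 (edgeR adjusted p = 0.0394), and it was 0.48 with 7P as the only P library, which did not pass (adjusted p = 0.906). Of the 18 tested genes of the B and plasma cell list it alone rose, and 12 had a lower mean in P. The other genes of this size that rose were Gm41414, Gm43088 and Gm26672, which have no assigned function.

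**Figure D4:**
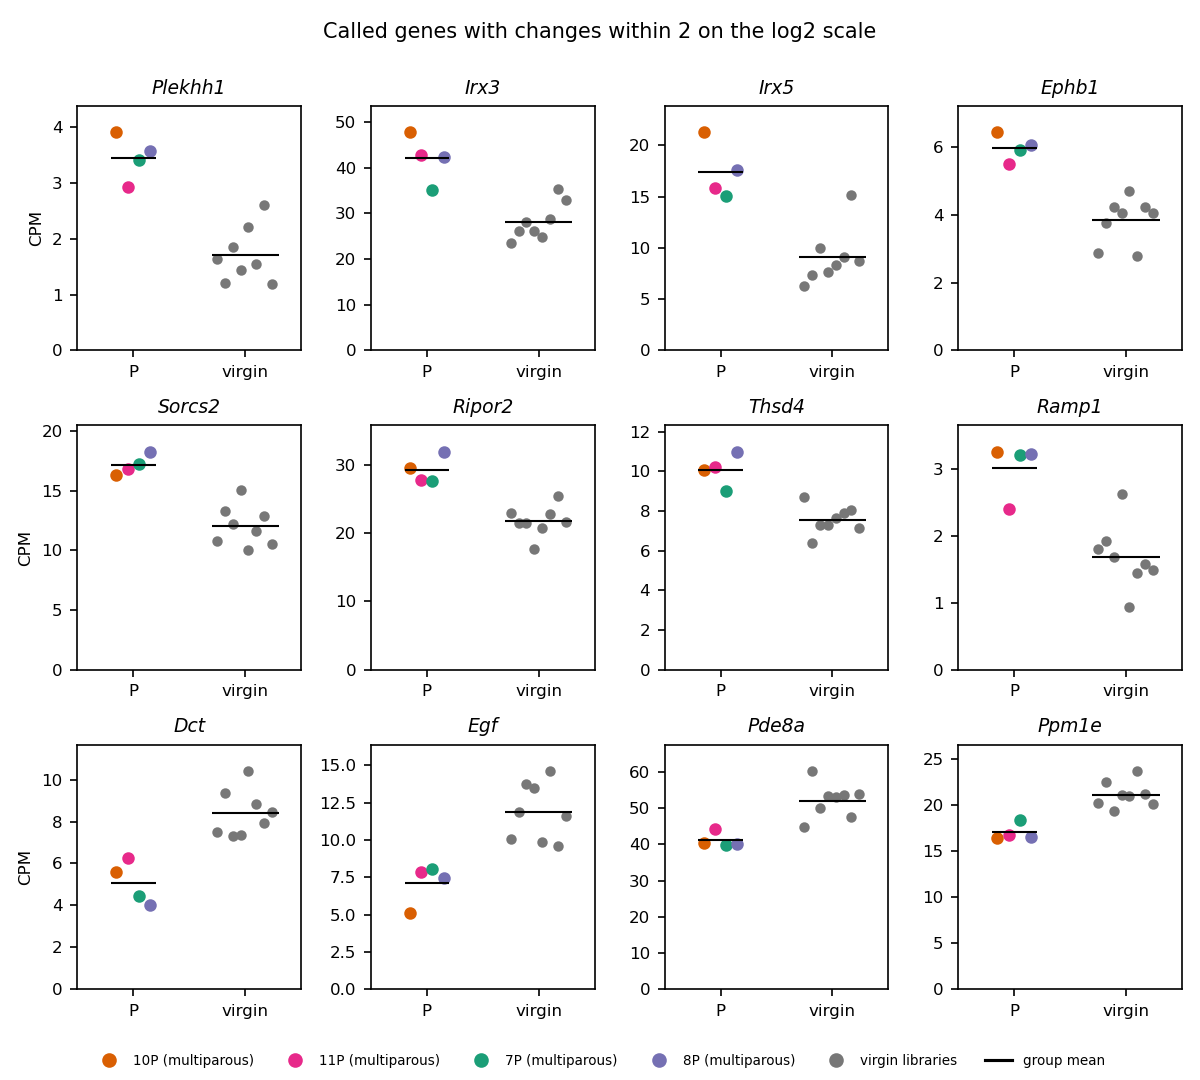
CPM (linear axis from 0) of 12 called genes with changes within 2 on the log2 scale in the 4 P and 8 virgin libraries, 1 point a library, with group means as lines. The upper 8 genes were higher and the lower 4 genes lower in P, and in Plekhh1, Ephb1, Sorcs2, Ripor2, Thsd4, Dct, Egf, Pde8a and Ppm1e no P library reaches the virgin range.

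Of the 26 genes that fell, 8 fell by 2 or less on the log2 scale, and in 7 of these 8 all 4 P libraries lay under all 8 virgin libraries. Dct, which encodes dopachrome tautomerase of melanin synthesis (chr14:118012790-118052244, minus strand), was at 5.59 CPM in 10P, 6.24 CPM in 11P, 4.46 CPM in 7P and 4.04 CPM in 8P. Its lowest, median and highest virgin levels were 7.32, 8.20 and 10.4 CPM. The groups did not overlap, and Dct fell by 0.73 on the log2 scale with a standard error of 0.12 (edgeR adjusted p = 0.0394).

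Egf, the epidermal growth factor gene, was at 5.12, 7.84, 8.09 and 7.44 CPM in 10P, 11P, 7P and 8P against 9.58 to 14.6 CPM in virgin libraries (median 11.7 CPM). Egf fell by 0.73 with a standard error of 0.14 (edgeR adjusted p = 0.0414). Egf is also made in large amounts by the distal tubule of the kidney, and without the 4 kidney-rich virgin libraries its log2 difference was -0.60 and no longer passed (adjusted p = 0.201). Pde8a, which encodes a phosphodiesterase that breaks down cyclic AMP, was at 40.5, 44.3, 39.7 and 40.2 CPM against 44.8 to 60.2 CPM (median 53.2 CPM). Ppm1e, a phosphatase gene whose product acts on calmodulin-dependent kinases, was at 16.4, 16.7, 18.4 and 16.5 CPM against 19.3 to 23.7 CPM (median 20.99 CPM). In both genes the groups did not overlap, with falls of 0.34 and 0.31 and standard errors of 0.07 and 0.06 (edgeR adjusted p = 0.0444 and 0.0394). Pmm2, the phosphomannomutase gene of protein glycosylation, fell by 0.26 (adjusted p = 0.0499). It passed in 0 of the 12 fits with a library left out. Apba2, which encodes an adaptor that binds the amyloid precursor protein, fell by 0.87 from a virgin median of 1.29 CPM, and Dkk2, a modulator of Wnt signalling, fell by 1.90 from a virgin median of 0.286 CPM (both 0.0394). Only 16 counts of Dkk2 were found over the 4 P libraries. Egf, Pde8a, Ppm1e and Pmm2 were named after their values were seen, and Gm50114, of no assigned function, was the eighth gene.

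Whether these differences are particular to the P code was asked by setting P against MP in a fit of all 16 libraries. Both codes are compared with the same virgin libraries, so the difference between them is P minus MP. Only 2 of 18905 genes passed (0.0106%), and 0 of them were among the 86. They were Mt1, a metallothionein gene, with a log2 difference of -0.57 (edgeR adjusted p = 0.0298) and Zbtb16, a glucocorticoid-induced transcription factor gene, with -1.19 (edgeR adjusted p = 0.0481). At an unadjusted p under 0.05 there were 1765 genes, 68 of the 86 among them. The 86 were called on the same P libraries, so this overlap is partly fixed in advance. Nothing is concluded from it. MP libraries held 1.02 to 24.2 CPM of Alb and 0.843 to 2.19 CPM of Kap, and the P minus MP differences were 4.07 (95% interval 1.80 to 6.35, adjusted p = 0.163) and -3.96 (-7.06 to -0.86, adjusted p = 0.38). For Plekhh1 the MP libraries held 2.84 to 3.30 CPM, and the difference was 0.17 (-0.23 to 0.57). For Thsd4 it was 0.16 (-0.03 to 0.35) and for Irx5 0.41 (-0.02 to 0.84). Ripor2 differed by 0.32 (0.15 to 0.50, adjusted p = 0.163) and Ramp1 by 1.11 (0.64 to 1.58, adjusted p = 0.133), and neither passed. A p above the threshold does not show that the codes are alike.

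Mt1 was at 59.0, 60.0, 56.1 and 58.5 CPM in 10P, 11P, 7P and 8P, against 60.4 to 83.8 CPM in virgin libraries (median 70.1 CPM) and 78.3 to 96.6 CPM in MP libraries. The P libraries lay under all others, and P against virgin did not pass (log2 difference -0.28, edgeR adjusted p = 0.125). Zbtb16 was at 60.8, 61.9, 66.8 and 81.7 CPM in P, 60.8 to 137 CPM in virgin libraries and 150 to 162 CPM in MP libraries. Fkbp5, another gene induced by glucocorticoids, was at 13.1, 10.8, 17.8 and 14.9 CPM in P, at 11.9 to 29.1 CPM in virgin and at 24.7 to 27.6 CPM in MP libraries. Its P minus virgin difference of -0.45 did not pass (edgeR adjusted p = 0.602). Of the 18 tested genes of the glucocorticoid list 0 passed between P and virgin, 14 had a lower mean in P and the median was -0.24.

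Genes of cardiac load and contraction did not pass between P and virgin hearts. Nppa, atrial natriuretic peptide, was at 61.0 CPM in 10P, 32.0 CPM in 11P, 59.8 CPM in 7P and 115 CPM in 8P against 23.7 to 103 CPM in virgin libraries (median 30.4 CPM). The highest virgin level was that of virgin 7, and the log2 difference of 0.77 had a 95% interval from -0.06 to 1.59 (edgeR adjusted p = 0.604). Nppb, which encodes B-type natriuretic peptide, differed by -0.42 (-0.995 to 0.146). Myh6 and Myh7, the fast and slow myosin heavy chain genes, differed by 0.01 (-0.22 to 0.24) and 0.23 (-0.61 to 1.06), and the calcium pump gene Atp2a2 by 0.02 (-0.19 to 0.23). The sign of these 3 differences turned with some covariates or with single libraries left out. Ankrd23, a titin-bound stretch protein gene, was at 122, 103, 108 and 131 CPM against 128 to 207 CPM (median 166 CPM), and its difference of -0.52 did not pass (edgeR adjusted p = 0.0996). Acta1 differed by -0.56 (-1.34 to 0.22) and Ankrd1 by -0.28 (-0.74 to 0.17). In the fetal and wall-stress list 0 of 19 tested genes passed and 16 had a lower mean in P.

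Cep128, a centriolar protein gene, was at 20.9, 16.9, 25.5 and 16.3 CPM against 10.1 to 17.8 CPM (median 12.7 CPM), while Cacna1h, whose product is a low-voltage calcium channel, was at 18.8, 15.5, 13.9 and 18.8 CPM against 10.3 to 16.1 CPM (median 11.1 CPM). Their log2 differences of 0.64 and 0.52 lay just short of the threshold (edgeR adjusted p = 0.0644 and 0.0706). In both genes virgin 7 was the highest virgin library, as it was for Irx5 and Nppa. The fibrosis genes Col1a1 (-0.09, interval -0.37 to 0.20) and Postn (-0.32, -0.74 to 0.09), the metabolic switch gene Pdk4 (0.10, -0.23 to 0.44) and the estrogen receptor gene Esr1 (0.09, -0.29 to 0.47) did not pass.

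Of 54 gene lists, 6 had a called member (liver, kidney, B and plasma cell, conduction, acute phase and matricellular) and 48 had none. Several of the 48 leaned to 1 side by small amounts. In respiratory complex I, 36 of 37 tested genes had a lower mean in P with a median log2 difference of -0.07, and in complexes II to V 40 of 41 had a lower mean with a median of -0.09. Glycolysis had 29 of 31 lower (median -0.08), the citric acid cycle 16 of 19 (median -0.10), the heat shock list 18 of 19 (median -0.09) and the antioxidant list 21 of 23 (median -0.06). These lists stand beside 52.9% of all tested genes with a lower mean and a median of -0.01, and no member passed. With library totals in place of the factors the median of all genes was 0.027. Fatty acid oxidation leaned to neither side, with 14 of 31 higher (median -0.02).

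The endocardial list had 10 of 10 tested genes higher in P with a median of 0.28, and 0 passed. Smoc1 (6.73, 3.91, 6.44 and 9.54 CPM in 10P, 11P, 7P and 8P, virgin median 2.55 CPM) and Plvap (18.1, 11.4, 14.2 and 17.2 CPM, virgin median 6.71 CPM) had the smallest p values of its members, with edgeR adjusted p of 0.445 and 0.46. The fibroblast list had 17 of 23 genes higher with a median of 0.10. The cell cycle list had 26 of 27 lower with a median of -0.24, and Cenpf, the 1 higher member, was at 59.7, 53.0, 72.9 and 51.4 CPM against a virgin median of 34.5 CPM (adjusted p = 0.527). Members named by the rule for lists without calls were lower for Tnni2 of fast skeletal muscle (-1.07, adjusted p = 0.114), Tpsb2 of mast cells (-0.98, 0.129), Snhg11 of neurons (-2.04, 0.103), Reln of lymphatic vessels (-0.46, 0.479) and Wt1 of the mesothelium (-0.29, 0.567), and higher for Cdh19 of Schwann cells (0.34, 0.217). None of these 6 passed. The pregnancy hormone receptor list had 0 of 13 tested genes called, with 9 higher and a median of 0.07.

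**Figure D5:**
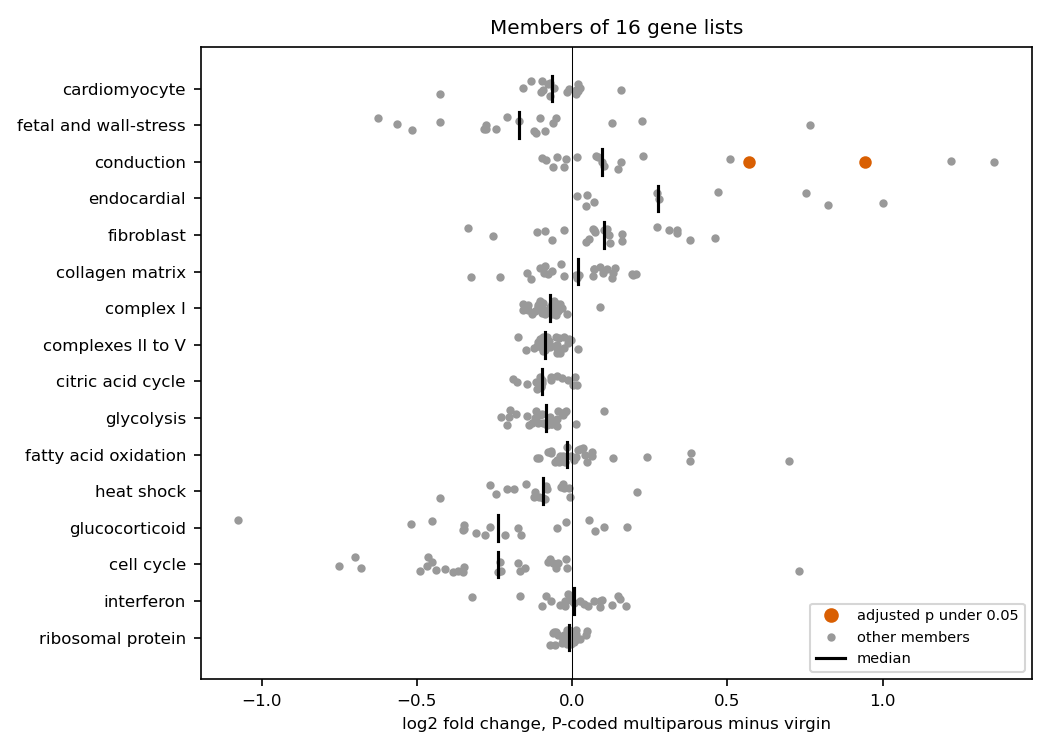
Log2 fold change, P minus virgin (horizontal), of the tested members of 16 gene lists (rows), 1 point a gene, with the median of each list as a bar and called genes in orange. The 2 called genes are Irx3 and Irx5 of the conduction list, all 10 endocardial genes lie right of 0, and nearly all genes of the respiratory complexes lie slightly left of it.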

How the data were processed

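Ribosome-depleted total RNA from the mid section of the left ventricle was sequenced from 16 mice, 1 library each. The authors deposited raw counts per gene, and the third column of each file was read here. HTSeq 0.11.1 and STAR 2.7.11b are among the tools that the submitters' processing notes name, besides SAMtools 1.19.2, Trim Galore 0.6.10 with cutadapt 4.8, bcl2fastq 2.20 and FastQC 0.12.1, and the build named there is GRCm38.p6. The annotation release is one item not given in the sources used here, and the strand setting is another. Reads assigned to no gene, 29.1% to 33.1% of each of the 12 libraries, were left out of the totals.

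Counts were tested in R 4.3.3 with edgeR 4.0.16 (TMM factors, filterByExpr by group, quasi-likelihood F-test, two-sided) on 4 P and 8 virgin libraries, with Benjamini-Hochberg adjustment over 18612 of 55487 genes and a threshold of 0.05. Levels are CPM on the TMM scale, and levels of MP libraries come from the fit of all 16. DESeq2 1.42.0, limma 3.58.1 and sva 3.50.0 served the alternatives. On data simulated for this comparison over 18612 genes, 50% of genes changed by 1.5-fold, 72% by 2-fold, 92% by 3-fold and 98% by 8-fold were called, with 14 of 18412 unchanged genes. The simulation drew each gene independently, whereas liver and kidney genes shift together in these libraries. Its shares therefore may not hold for the real counts. No 2 libraries of a group were alike within sampling noise (34 pairs, lowest chi-square per degree of freedom 9.86). Per the series' design text each group held 8 hearts, and the sources say nothing more of how samples were taken, so p-values cover only the spread among these libraries, which may in part be technical.

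Groups and the gene lists were chosen with earlier results of these data known. Genes were named by rule: the 10 higher and 10 lower genes of smallest p, the 5 largest called changes each way (mean level 1 CPM or more), up to 4 called members of a list, the member of smallest p in the 12 lists farthest from the median of all genes, and 20 genes named in advance. Predicted genes were passed over by this rule. Genes outside the rule are said to be named after their values were seen, or stand beside such a gene as its family or partner (Irx1, Irx2, Irx4, Kcnd2, Kcnip2, Plvap, Folr1, Ttr, Kl). Positions came from GENCODE M21 (GRCm38) and promoters from RefSeq. A promoter was found for 66 of the 86 called genes.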

Additional observations from a re-analysis of the deposited data

Results flagged for a closer look

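Within each group, libraries that stood apart from the rest of their group by Dixon's test were noted for the genes named. Chance does so in about 1 in 20 groups. Virgin 1 was the highest virgin library by such a gap for the liver genes Alb (14.5 CPM), Ces1c (0.767 CPM), Serpina3k (0.746 CPM), Kng1 (0.726 CPM), Mup3 (0.435 CPM), Itih1 (0.332 CPM), Orm1 (0.332 CPM), Cyp2c37 (0.27 CPM), Cyp3a11 (0.27 CPM), Cyp2c29 (0.228 CPM) and Pon1 (0.207 CPM), and it was the lowest for Apba2 (0.871 CPM). Virgin 3 stood highest for A1bg (0.801 CPM). Virgin 5 stood highest for Irx1 (8.23 CPM) and Irx2 (10.6 CPM). Virgin 7 stood highest for Irx5 (15.2 CPM), Nppa (103 CPM), Cep128 (17.8 CPM) and Cacna1h (16.1 CPM). Virgin 8 stood highest for Ttr (219 CPM), Kl (12.1 CPM) and Folr1 (1.57 CPM), genes that the choroid plexus also expresses.

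Among the P libraries, 7P stood lowest for Ighd (0.902 CPM) and Irx4 (24.1 CPM) and highest for Ppm1e (18.4 CPM), while 11P stood lowest for Ramp1 (2.40 CPM) and highest for Pde8a (44.3 CPM).

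The difference from virgin hearts itself differed between the P and MP codes for Mt1 (log2 difference -0.57, edgeR adjusted p = 0.0298) and Zbtb16 (-1.19, edgeR adjusted p = 0.0481). In both genes the 4 P libraries lay under or within the virgin range and the 4 MP libraries were higher on average than the virgin libraries.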

How the results depend on the processing

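The number of genes called (86, with 60 higher and 26 lower) depended on most choices, and where it changed the cause was not tested. It was 240 (105 higher, 135 lower) with DESeq2, 1 (1, 0) with limma voom and 2 (2, 0) with robust quasi-likelihood, while the older quasi-likelihood method called 41 lower. It was 223 (176, 47) with no filter on low counts, 1 (1, 0) with a filter of 1 CPM in 4 libraries, 171 (110, 61) with all 16 libraries in 3 groups, 130 (46 lower) at a threshold of 0.1 and 1 (1, 0) at 0.01. With virgin 8 thinned to the median depth 39 were higher. As covariates, the liver list gave 40 (27, 13), the kidney list 0 (0, 0), both 56 (13 lower), the unassigned share 2 (1, 1) and 1 surrogate variable 135 (50 lower). The kidney sum separates the groups completely, so a fit with it cannot cleanly tell kidney level from group. Leaving out 1 library at a time gave 1 to 166 genes, 1 to 153 higher and 0 to 29 lower. Of the alternatives chosen after seeing the data, leaving out the 3 liver-rich P libraries gave 1 (1, 0), leaving out the 4 kidney-rich virgin libraries 8 (3, 5) and a covariate of the liver genes scarce in virgin hearts 41 (3 higher). For P against MP, DESeq2 called 132, limma voom 2, library totals without factors 0, only the 8 multiparous libraries 27 and the liver covariate 1.

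With the replicate number of the titles as a replicate block the test called 44 genes, 13 of them higher, and 23 were among the 86. The numbers share no animal or batch in the labels. Same-numbered libraries correlated at 0.07, -0.01, 0.35 and -0.08, and 1 of the 4 P libraries correlated best with its own number.

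Some signs turned. With 7P as the only P library they turned for Cyp2c29 (-1.62), Cyp2c37 (-5.03), Ces1c (-1.10), Mup3 (-0.85), Alb (-1.67), Kng1 (-1.55), Cyp3a11 (-5.68), Itih1 (-0.36), Orm1 (-4.86), Esr1 (-0.068) and Ankrd1 (0.043). With the covariate of scarce liver genes they turned for Alb (-0.088), Kng1 (-0.066), Orm1 (-1.02), Myh7 (-0.093) and Esr1 (-0.095), and with the liver list for Esr1 (-0.034). Myh6 turned with the kidney list (-0.11), both lists (-0.079), the surrogate variable (-0.00074) and without the kidney-rich virgin libraries (-0.027). Atp2a2 turned with the kidney list (-0.078), both lists (-0.086) and without the kidney-rich virgin libraries (-0.018). Wt1 turned with both lists (0.012). Myh7 turned under the block (-0.037) and with the unassigned share (-0.037). Ttr turned with DESeq2 (2.00) and under the block (1.60). With 1 library left out at a time the range was -0.17 to 0.41 for Myh7, -0.0066 to 0.042 for Atp2a2, -0.018 to 0.041 for Myh6, -0.0068 to 0.23 for Pdk4, -0.15 to 0.0081 for Col1a1 and -2.85 to 2.01 for Ttr, which was positive without virgin 8. The kidney list without its most abundant gene summed to 18.9 CPM in P, against 43.3 CPM with it.

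Depth limits the kidney genes: 3 counts, the least taken as detected, equal 0.051 to 0.068 CPM in the P libraries, and levels under this are not told apart from 0. Some liver genes are limited too. In the virgin libraries 3 counts equal 0.013 to 0.083 CPM, and the virgin mean of Cyp2c29 was 0.054 CPM. In 7P its level of 0.017 CPM lay under the floor of 0.051 CPM. The sizes of such log2 changes rest on few counts.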
